A study of Mus musculus with 9 samples.

Results

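The 8 genes described here encode enzymes that cap or branch the glycans of the T cell surface. They are 5 sialyltransferases (St3gal1, St3gal4, St3gal6, St6gal1 and St8sia4), the branching enzymes Gcnt1 and Gcnt2, and the fucosyltransferase Fut7. They were chosen by name, with earlier results of these data known, and all 8 had a row among the 24060 genes with values. Of these, 6 were tested, since Gcnt1 and Gcnt2 did not exceed 1 TPM in any library (TPM is a length-corrected level with the same sum in every library). RNA of activated CD8 T cells was sequenced in 9 libraries, 3 each from R7-I, R7-II and R7-III, the 3 clones of the study. Each clone came from a transnuclear mouse line, made by nuclear transfer from 1 CD8 T cell specific for the ROP7 peptide of Toxoplasma gondii, on a Rag2 proficient BALB/c (CD90.2+) background. A clone is therefore 1 T cell receptor and 1 mouse line, and these cannot be told apart. Splenocytes of every line were cultured overnight in 10 ng/ml IL-2 with ROP7 peptide at 10 µM, from which live CD3+ CD8+ cells that bound the H-2Ld-Rop7 tetramer were sorted at a stated purity of 90 to 95%. The submitters rank the clones by affinity for the peptide as R7-I, then R7-III, then R7-II, and by self-reactivity as R7-III, then R7-I, then R7-II. The age of the mice was not given in the sources used here, and resting cells were not analysed here.

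Sialyltransferases add sialic acid to the ends of glycan chains in the Golgi, and the linkage that they make decides which lectins can bind. ST3GAL1 caps the short core 1 O-glycan, while GCNT1 adds a branch to the same core 1 chain, and the resulting core 2 chain can be lengthened, sialylated by ST3GAL4 or ST3GAL6 and fucosylated by FUT7 into sialyl Lewis x, the ligand of selectins. In CD8 T cells these steps are known to change between naive, effector and memory cells, and effector cells that enter inflamed tissue carry P-selectin ligands built on core 2 chains.

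The libraries held between 13738 and 14434 genes above 0 TPM. TPM keeps no read number, so no counting interval can be given for a level. The R7-II libraries also held more RNA of genes typical of other spleen cells. The summed level of 10 B cell markers ran from 8.69 to 16.1 TPM for R7-I, from 35.7 to 74.7 TPM for R7-II and from 5.18 to 8.12 TPM for R7-III. That of 9 MHC class II genes was 33.9 to 52.1, 121 to 198 and 25.6 to 30.5 TPM, and that of 11 myeloid markers 94.8 to 103, 135 to 205 and 92.2 to 99.8 TPM. Most of the myeloid sum was Cst3, at means of 66.1, 79.5 and 64.3 TPM, and Ctss, at 28.4, 34.4 and 24.3 TPM. Lyz2 was at 0.25 to 0.65, 13.8 to 56.7 and 1.57 to 2.43 TPM. All 8 B cell markers and all 9 MHC class II genes tested were higher in R7-II than in each of the other clones, as were 7 of 9 myeloid markers against R7-I and 8 of 9 against R7-III. After rescaling by median-of-ratios factors these counts were 7 of 8 and 8 of 8, 7 of 9 and 9 of 9, and 6 of 9 and 5 of 9. Cd22, Blk, Fcer2a, Ciita, Csf1r, Itgam, Fcer1g and Cd14 exceeded 1 TPM in R7-II alone and so were tested only through the clone where they were high. Without them 5 of 5 B cell markers and 8 of 8 MHC class II genes were higher in both comparisons, and 4 of 5 and 5 of 5 myeloid markers. No defining B cell marker was at 0 in any library. The 4 CD4 T cell markers summed to 3.36 to 4.11, 4.03 to 5.81 and 5.62 to 8.01 TPM. Most of this sum was Cd40lg, at means of 2.65, 2.18 and 5.41 TPM. The others were highest in R7-II, with Cd4 at 0.30, 0.98 and 0.38 TPM, Zbtb7b at 0.26, 0.74 and 0.59 TPM and Foxp3 at 0.42, 0.90 and 0.26 TPM. With no filter on low values 3 were higher and 0 lower in R7-II against R7-I, and 2 higher and 1 lower against R7-III. Genes of the T lineage were present in every library, with Cd3e at 267 to 272, 366 to 389 and 316 to 331 TPM. Of 15 tested, 10 were higher and 2 lower in R7-II in each comparison. Of all genes, 40.6% were higher and 15.5% lower against R7-I, and 35.6% and 18.0% against R7-III. After median-of-ratios rescaling the 15 gave 8 and 2, and 9 and 3. Cd5, at means of 545, 360 and 684 TPM, and Cd6, at 536, 434 and 592 TPM, were lowest in R7-II. Outside this list, Cd8a was at 339 to 349, 393 to 452 and 372 to 380 TPM. In such sorted cells, fewer cells of a type and less RNA per cell cannot be told apart.

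The start regions of St6gal1 and St8sia4 are printed because these were the members that differed between clones, while the level of Klf2, a zinc finger factor that binds CACCC boxes, differed in the same comparisons. The windows run from 250 bases before to 50 bases after each RefSeq start (GRCm38.p6, the mm10 build) and are written 5′ to 3′ on the gene's strand. Capitals mark CACCC or its reverse complement GGGTG.
St6gal1 start 1, chr16:23224490-23224789, plus strand: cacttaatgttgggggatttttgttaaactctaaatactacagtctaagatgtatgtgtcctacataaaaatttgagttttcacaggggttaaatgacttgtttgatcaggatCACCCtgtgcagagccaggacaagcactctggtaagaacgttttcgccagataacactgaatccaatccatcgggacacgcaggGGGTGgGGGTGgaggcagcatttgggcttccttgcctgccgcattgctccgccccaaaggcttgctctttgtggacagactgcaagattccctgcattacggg
St6gal1 start 2, chr16:23225771-23226070, plus strand: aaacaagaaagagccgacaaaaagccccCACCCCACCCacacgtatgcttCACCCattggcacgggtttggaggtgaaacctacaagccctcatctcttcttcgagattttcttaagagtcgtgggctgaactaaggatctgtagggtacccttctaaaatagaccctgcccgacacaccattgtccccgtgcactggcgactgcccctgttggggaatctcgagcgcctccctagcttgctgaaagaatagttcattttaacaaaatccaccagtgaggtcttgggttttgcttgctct
St6gal1 start 3, chr16:23290220-23290519, plus strand: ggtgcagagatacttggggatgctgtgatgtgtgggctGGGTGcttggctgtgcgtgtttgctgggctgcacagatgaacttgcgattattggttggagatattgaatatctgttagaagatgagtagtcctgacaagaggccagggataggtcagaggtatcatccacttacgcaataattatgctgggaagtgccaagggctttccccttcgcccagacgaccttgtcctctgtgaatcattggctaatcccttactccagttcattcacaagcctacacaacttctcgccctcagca
St8sia4 start 1, chr1:95667545-95667844, minus strand: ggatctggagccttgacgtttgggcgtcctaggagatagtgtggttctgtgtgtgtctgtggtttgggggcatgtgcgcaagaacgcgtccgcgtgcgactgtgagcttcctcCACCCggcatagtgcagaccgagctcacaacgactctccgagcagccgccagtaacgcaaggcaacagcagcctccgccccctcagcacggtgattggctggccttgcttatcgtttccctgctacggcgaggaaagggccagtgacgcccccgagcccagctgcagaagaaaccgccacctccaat

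The 3 St6gal1 windows held 3, 3 and 1 of these matches, and the St8sia4 window held 1. Start windows were found for 7 of the 8 genes, 15 windows in all, of which 13 held CACCC on either strand. Of 32851 windows of the same length in the genome, 57.5% held it, so a match is common. The T-box letters TCACACC, the FOXO letters TGTTTAC and the TCF letters CTTTGAT, each searched on both strands, were in 0 of the 15 windows and in 3.98%, 3.65% and 3.73% of all windows. The T-box letters can overlap CACCC. A match marks letters and not a bound site.

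The genes lie on 7 chromosomes of GRCm38. St6gal1 spans chr16:23224729-23360350 on the plus strand, St3gal6 chr16:58469742-58524260 on the minus strand, and St3gal1 chr15:67102875-67176946 on the minus strand. St3gal4 spans chr9:35046576-35116864 on the minus strand, St8sia4 chr1:95587682-95667717 on the minus strand, and Gcnt1 chr19:17326141-17372844 on the minus strand. Gcnt2 spans chr13:40859768-40960892 and Fut7 chr2:25422351-25426374, both on the plus strand. The reads were not strand-specific, so reads of genes that overlap on opposite strands were not separable. Exons of St3gal6 share 1603 bases with Dcbld2, those of St3gal4 412 bases with 4930581F22Rik, those of St6gal1 200 bases with BC106179, and those of Gcnt2 482 bases with A730081D07Rik and 295 bases with Gm31683. Dcbld2 was at a mean of 0.369 TPM, which is not far below St3gal6 itself, and 4930581F22Rik was at 2.35 TPM, far below St3gal4.

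Activated R7-II CD8 T cells had more St6gal1 and St8sia4 RNA than both other clones, and the other 4 genes tested did not pass the threshold in any comparison. This made 2 of 6 genes higher and 0 lower in R7-II against R7-I, where 40.6% of the 11330 genes tested were higher and 15.5% lower. Against R7-III, in a comparison that shares the R7-II libraries, the members' count was again 2 higher and 0 lower, with 35.6% of all genes higher and 18.0% lower. In R7-III against R7-I none of the 6 passed (0 of 6), with 6.96% of all genes higher and 1.45% lower in R7-III. The share higher fell to 3.21% without R7-I replicate 1, and was 3.67 to 4.35% without R7-I replicate 2 or any 1 of the R7-III replicates. In the same comparison St3gal1 and St6gal1, 2 of the 6 genes, had an unadjusted p under 0.05, which was 0.0486 and 0.00111 in limma's model across all genes. On the TPM scale a count of 2 of 6 is thus no larger than the share of all genes that were higher in R7-II. Over all genes the median log2 fold change of TPM + 1 was 0.17 for R7-II minus R7-I, 0.12 for R7-II minus R7-III and 0.04 for R7-III minus R7-I, so a member near these values moved with the bulk of genes. The members' medians were 0.15, 0.08 and 0.08. After rescaling by median-of-ratios factors, which takes the median of all genes to about 0, St6gal1 and St8sia4 remained higher in R7-II and St3gal4 was lower in both R7-II comparisons, 2 and 1 of 6, beside 25.2% of all genes higher and 29.4% lower than in R7-I and 25% higher and 28.2% lower than in R7-III. In R7-III against R7-I these shares were 4.86% and 3.72%.

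**Figure D1:**
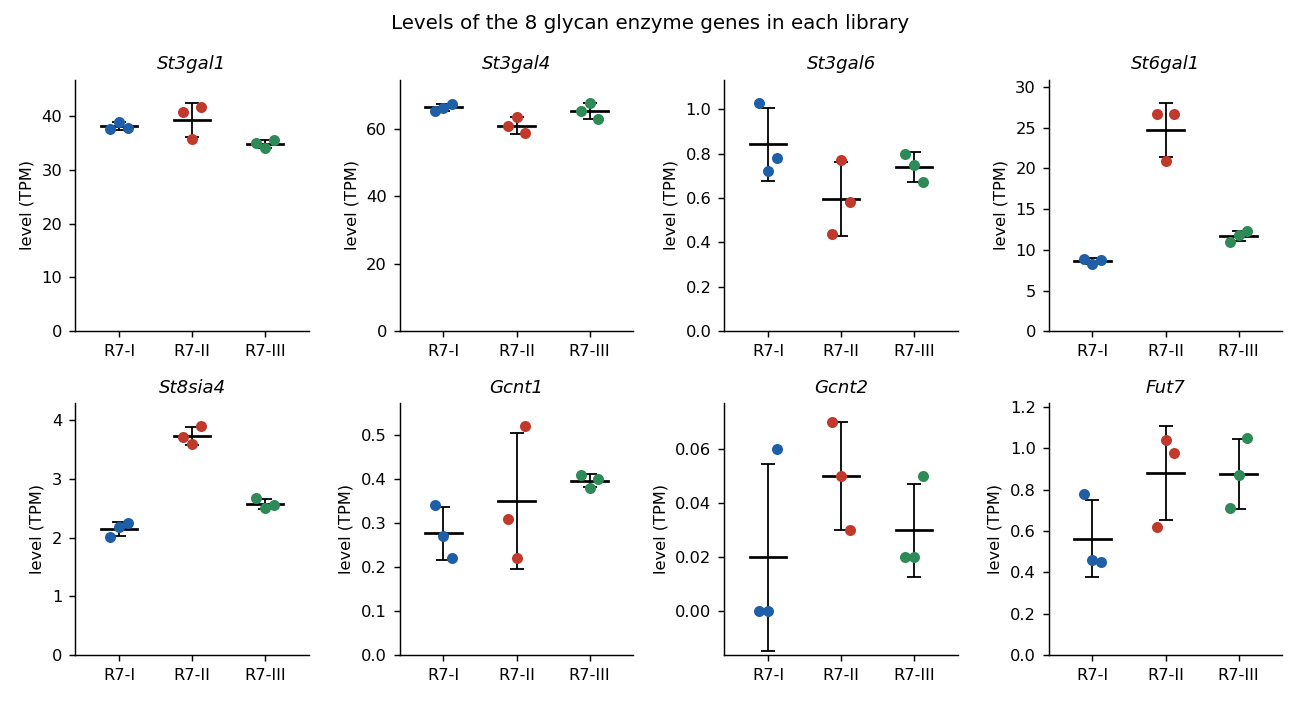
Level in TPM (y axis, linear) of each of the 8 genes in the 3 libraries of R7-I (blue), R7-II (red) and R7-III (green), with the mean (bar) and SD (whisker, n = 3 libraries). The R7-II libraries of St6gal1 lie between 20.9 and 26.7 TPM and those of St8sia4 between 3.60 and 3.90 TPM, above all libraries of the other clones, while the other 6 genes overlap between R7-II and at least 1 other clone.

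By length-corrected level, the genes fell into 2 ranges. St3gal4 stood highest with a mean over the 9 libraries of 64.2 TPM, followed by St3gal1 with 37.4, St6gal1 with 15.0 and St8sia4 with 2.82 TPM. Of the 16301 genes above 0 in any library, 83.7% had a lower mean than St3gal4, 74.7% than St3gal1, 58.8% than St6gal1 and 41.6% than St8sia4. Below them came Fut7 with 0.773, St3gal6 with 0.727, Gcnt1 with 0.341 and Gcnt2 with 0.0333 TPM. The first 4 did not overlap each other in any library, and Fut7, St3gal6 and Gcnt1 did, with 0.45 to 1.05, 0.44 to 1.03 and 0.22 to 0.52 TPM.

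**Figure D2:**
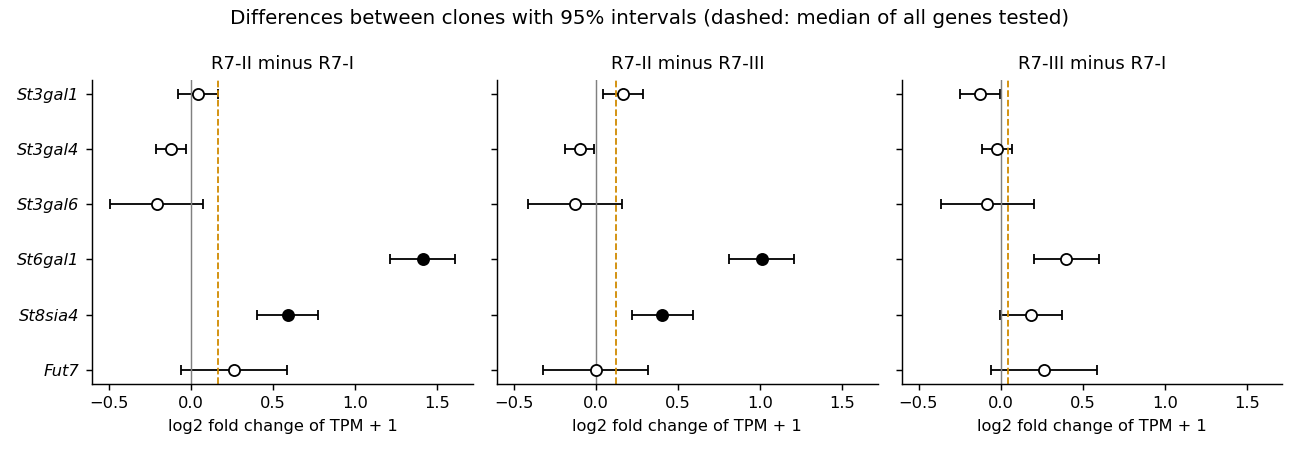
Log2 fold change of TPM + 1 (x axis) of the 6 genes tested in each comparison, with 95% intervals from limma. Filled points passed an adjusted p of 0.01 (St6gal1 and St8sia4 in both R7-II comparisons) and the dashed line marks the median of all 11330 genes tested (0.17, 0.12 and 0.04).

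St3gal1, the enzyme that caps core 1 O-glycans with sialic acid and so hides the chain from the lectin peanut agglutinin, was at 37.5, 38.9 and 37.8 TPM in R7-I, at 40.7, 35.7 and 41.6 TPM in R7-II and at 34.9, 34.1 and 35.6 TPM in R7-III. All 3 R7-III libraries lay at the low end, just below the lowest R7-II library, and R7-II spanned R7-I. The log2 fold change was 0.04 for R7-II against R7-I (95% interval -0.08 to 0.17, adjusted p = 0.509, limma, adjusted by Benjamini-Hochberg over all genes tested). It was 0.17 against R7-III (0.04 to 0.29, adjusted p = 0.0212 from limma) and, in R7-III minus R7-I, -0.12 (-0.25 to -0.00094, adjusted p = 0.152 from limma). None of these passed 0.01. Without R7-II replicate 2, the lowest of its clone, the difference from R7-III was 0.23 with an adjusted p of 6.79e-04 from limma. The sign against R7-I turned under both other scalings, to -0.14 with median-of-ratios factors and -0.16 with quantile normalization (adjusted p = 0.0196 and 0.0153 from limma).

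St3gal4, which sialylates galactose at the ends of lactosamine chains and takes part in selectin ligand synthesis, was at 65.3, 66.4 and 67.4 TPM in R7-I, at 60.7, 63.6 and 58.7 TPM in R7-II and at 65.5, 67.8 and 62.9 TPM in R7-III. R7-II lay lowest, without overlap with R7-I and with a narrow overlap with R7-III. The log2 fold change was -0.12 against R7-I (95% interval -0.21 to -0.03, adjusted p = 0.0228 from limma) and -0.10 against R7-III (-0.19 to -0.01, adjusted p = 0.0537 from limma). Over the 3 R7-II libraries against the other 6 the exact two-sided permutation test gave p = 0.0476, where 3 against 6 libraries allow no p below 0.0238. Relative to the bulk of genes it passed the threshold. With median-of-ratios factors the log2 fold changes were -0.31 and -0.23 (adjusted p = 2.84e-04 and 0.00181 from limma), with quantile normalization -0.24 and -0.19 (adjusted p = 0.00135 and 0.00513 from limma), and without R7-II replicate 2 the value against R7-I on the TPM scale was -0.15 (adjusted p = 0.00844 from limma). R7-III and R7-I differed by -0.02 (-0.11 to 0.07, adjusted p = 0.766 from limma).

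St3gal6, another enzyme of sialyl Lewis x synthesis, was near the limit of the filter in every library. It was at 1.03, 0.72 and 0.78 TPM in R7-I, at 0.44, 0.77 and 0.58 TPM in R7-II and at 0.80, 0.75 and 0.67 TPM in R7-III, and all clones overlapped. The log2 fold changes were -0.21, -0.13 and -0.08 for R7-II against R7-I, R7-II against R7-III and R7-III against R7-I, with adjusted p of 0.172, 0.396 and 0.722 from limma. The intervals of the R7-II differences ran from -0.49 to 0.08 and from -0.41 to 0.16. With quantile normalization the first was -0.53 (adjusted p = 0.00546 from limma). It passed the filter through a single library, R7-I replicate 1.

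St6gal1, the enzyme that adds sialic acid to N-glycans in the linkage that the B cell lectin CD22 binds, differed most between clones of the 6 genes tested. It was at 8.91, 8.26 and 8.71 TPM in R7-I, at 26.6, 20.9 and 26.7 TPM in R7-II and at 11.01, 11.9 and 12.3 TPM in R7-III. The 3 clones did not overlap. The level in R7-II was 2.66-fold that in R7-I on the TPM + 1 scale (log2 fold change 1.41, 95% interval 1.21 to 1.61, adjusted p = 4.50e-07 from limma) and 2.01-fold that in R7-III (1.01, 0.81 to 1.21, adjusted p = 4.30e-06 from limma). With all 3 R7-II libraries above the rest, the exact permutation test (two-sided, 3 against 6 libraries) gave its smallest possible p of 0.0238. Over all alternatives the log2 fold change ranged from 1.12 to 1.52 in the comparison with R7-I and from 0.83 to 1.12 in that with R7-III. R7-III was 0.40 above R7-I (95% interval 0.20 to 0.60), which with an adjusted p of 0.0119 from limma did not pass 0.01. Without R7-II replicate 2 and with only these 2 clones in the fit it did, with adjusted p of 0.00141 and 0.00213 from limma.

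B cells are rich in St6gal1, and the B cell markers were also higher in R7-II than in the other clones. R7-II replicate 2 had the lowest summed B cell markers of its clone (35.7 TPM, against 74.7 and 57.03 TPM in replicates 1 and 3) and also the lowest St6gal1 (20.9 TPM). Every R7-III library lay above every R7-I library in St6gal1. The B cell marker sums of R7-III, 5.18, 7.67 and 8.12 TPM, were below the 8.69 to 16.1 TPM of R7-I. Without R7-II replicate 1, the library with the most B cell marker RNA, the log2 fold change against R7-I was 1.36 (adjusted p = 3.09e-06 from limma). The part of B cell RNA in the St6gal1 level of R7-II was not tested.

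**Figure D3:**
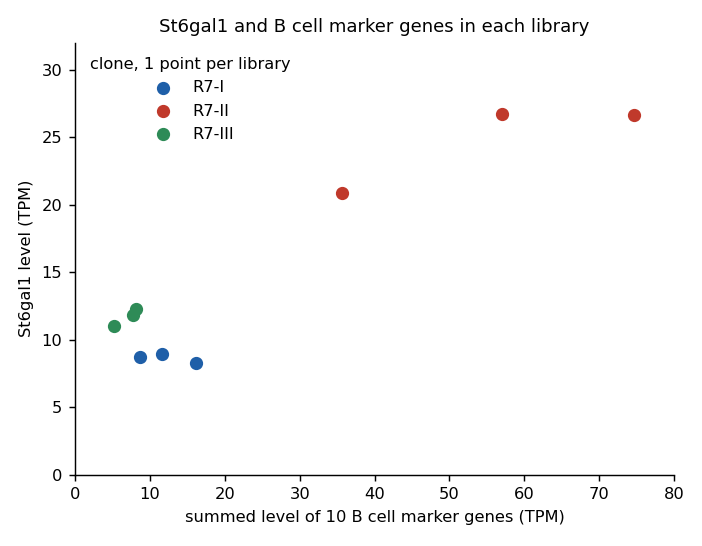
St6gal1 level (y axis, TPM) against the summed level of 10 B cell marker genes (x axis, TPM) in each of the 9 libraries, coloured by clone. The 3 R7-II libraries stand apart on both axes (20.9 to 26.7 TPM of St6gal1, 35.7 to 74.7 TPM of markers), and the R7-III libraries lie above those of R7-I with lower marker sums.

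St8sia4, which builds polysialic acid chains and is known to act on the receptors NRP2 and CCR7 in immune cells, was at 2.01, 2.18 and 2.25 TPM in R7-I, at 3.71, 3.60 and 3.90 TPM in R7-II and at 2.67, 2.51 and 2.55 TPM in R7-III. The clones did not overlap, in the same order as for St6gal1, and the spread within each clone was narrow. R7-II exceeded R7-I by a log2 fold change of 0.59 (95% interval 0.40 to 0.78, adjusted p = 1.16e-04 from limma) and R7-III by 0.41 (0.22 to 0.59, adjusted p = 0.00159 from limma). The exact two-sided permutation test over 3 against 6 libraries gave p = 0.0238. Its size depended on the scale. With median-of-ratios factors it was 0.45 and 0.30 (adjusted p = 5.28e-04 and 0.00623 from limma), and with quantile normalization 0.24 and 0.21, which no longer passed (adjusted p = 0.0162 and 0.0260 from limma). R7-III lay 0.19 above R7-I (-0.0016 to 0.37, adjusted p = 0.158 from limma). R7-II replicate 2 had the least B cell marker RNA of its clone (35.7 TPM, still above all libraries of the other clones). It also had the lowest St8sia4 of the clone (3.60 TPM), above all libraries of the other clones. The part of RNA of other cells in the St8sia4 level was not tested.

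Gcnt1, the core 2 branching enzyme, was listed between 0.22 and 0.52 TPM in all 9 libraries. It was at 0.34, 0.27 and 0.22 TPM in R7-I, at 0.31, 0.22 and 0.52 TPM in R7-II and at 0.41, 0.38 and 0.40 TPM in R7-III. R7-II spanned both other clones, and R7-III lay above R7-I. Gcnt2, which makes branches of the I type on lactosamine chains, was listed between 0 and 0.07 TPM, at 0 in R7-I replicates 1 and 2. In a fit with no filter on low values (16301 genes) the smallest adjusted p over both genes and the 3 comparisons was 0.302 from limma, for Gcnt2 in R7-II against R7-I. No difference between clones was thus called for either gene, and at these low levels a small difference could be missed.

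Fut7, the fucosyltransferase that completes sialyl Lewis x in leukocytes, was at 0.78, 0.46 and 0.45 TPM in R7-I, at 0.62, 1.04 and 0.98 TPM in R7-II and at 0.71, 0.87 and 1.05 TPM in R7-III. All clones overlapped. The log2 fold change was 0.27 for both R7-II and R7-III against R7-I (95% intervals -0.06 to 0.59 for both, adjusted p = 0.128 and 0.239 from limma), and R7-II and R7-III differed by 0.00 (-0.32 to 0.32, adjusted p = 0.997 from limma).

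Ratios within a library do not depend on the scaling between libraries. St3gal1 exceeded Gcnt1, its competitor for core 1 chains, by 79.9- to 172-fold in TPM, with 110, 144 and 172 in R7-I, 131, 162 and 79.9 in R7-II and 85.0, 89.6 and 88.9 in R7-III. The clones overlapped in this ratio, apart from R7-III lying below R7-I. It divides by Gcnt1 at 0.22 to 0.52 TPM, a low level at which small differences between clones could be missed. The summed level of St3gal1, St3gal4 and St3gal6 was nearly the same everywhere on the TPM scale, 99.1 to 106 TPM. Unlike a ratio, this sum depends on the scaling between libraries. Against this sum, St6gal1 came to 7.80 to 8.58% in R7-I, 20.9 to 26.5% in R7-II and 10.9 to 12.4% in R7-III, again without overlap. St3gal1 and St3gal4 together made up 88.7 to 89.8% of the summed TPM of the 8 genes in R7-I, 75.4 to 78.9% in R7-II and 85.3 to 86.5% in R7-III.

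The 8 genes belong to a larger set of enzymes of sialylation, O-glycan synthesis and selectin ligand assembly, listed as 88 further genes in 7 groups. Of these, 56 were tested. In R7-II against R7-I, 16 were higher and 10 lower (28.6% and 17.9% of those tested, beside 40.6% and 15.5% of all genes). Against R7-III, 13 were higher and 14 lower (23.2% and 25%, beside 35.6% and 18.0%). The medians were 0.09 and 0.02, below those of all genes (0.17 and 0.12). The split depended on the scale, as it did for all genes. After median-of-ratios rescaling 10 were higher and 20 lower against R7-I, beside 25.2% and 29.4% of all genes. Against R7-III 8 were then higher and 19 lower, beside 25% and 28.2%. With quantile normalization it was 7 and 23 against R7-I, beside 22.6% and 26.6%. Against R7-III it was then 7 and 20, beside 24.4% and 25.1%. These shares of all genes also stand beside the counts of each of the 7 groups below. In R7-III against R7-I 4 of the 56 were higher and 0 lower (7.14% and 0%, median 0.05). These 4, named after their values were seen, were Nans (0.17), Galnt3 (0.37), B4galt4 (0.74) and Man2a2 (0.49), of which B4galt4 was no longer called when any 1 R7-I replicate, R7-III replicate 2 or R7-III replicate 3 was left out (highest adjusted p = 0.0249 from limma). Of the genes called higher in these lists, 3 were tested only through the clone where they were high, since Galnt9 and B3gnt5 exceeded 1 TPM in R7-II alone and B4galt4 in R7-III alone. With no filter on low values these 3 were called as well, B4galt4 with an adjusted p of 0.00292 from limma.

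Among the 15 other sialyltransferases 6 were tested, of which R7-II had 1 higher and 2 lower than R7-I, and 0 higher and 2 lower than R7-III (medians -0.01 and -0.21). After median-of-ratios rescaling it had 0 higher and 2 lower, and 0 higher and 4 lower, and after quantile normalization 0 higher and 4 lower in both. St6galnac4, which adds a sialic acid to the core 1 chain already capped by ST3GAL1, was the most abundant of the list, with 98.1, 102 and 103 TPM in R7-I, with 75.6, 76.5 and 82.4 TPM in R7-II and with 105, 102 and 104 TPM in R7-III. It was lower in R7-II by a log2 fold change of -0.37 and -0.41 (adjusted p = 1.39e-05 and 7.17e-06 from limma), without overlap. St3gal5, the synthase of the ganglioside GM3, was at 4.24, 3.02 and 3.07 TPM in R7-I, at 0.88, 2.13 and 1.70 TPM in R7-II and at 6.65, 6.43 and 6.84 TPM in R7-III. It was lower in R7-II, at -0.81 and -1.60 (adjusted p = 0.00177 and 1.72e-05 from limma), and the 3 clones did not overlap. St8sia1, the synthase of the ganglioside GD3, was at 9.96 to 10.6 TPM in R7-I, 12.7 to 15.7 TPM in R7-II and 11.97 to 14.0 TPM in R7-III. Its log2 fold change of 0.42 against R7-I (adjusted p = 9.95e-04 from limma) did not pass after either rescaling.

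**Figure D4:**
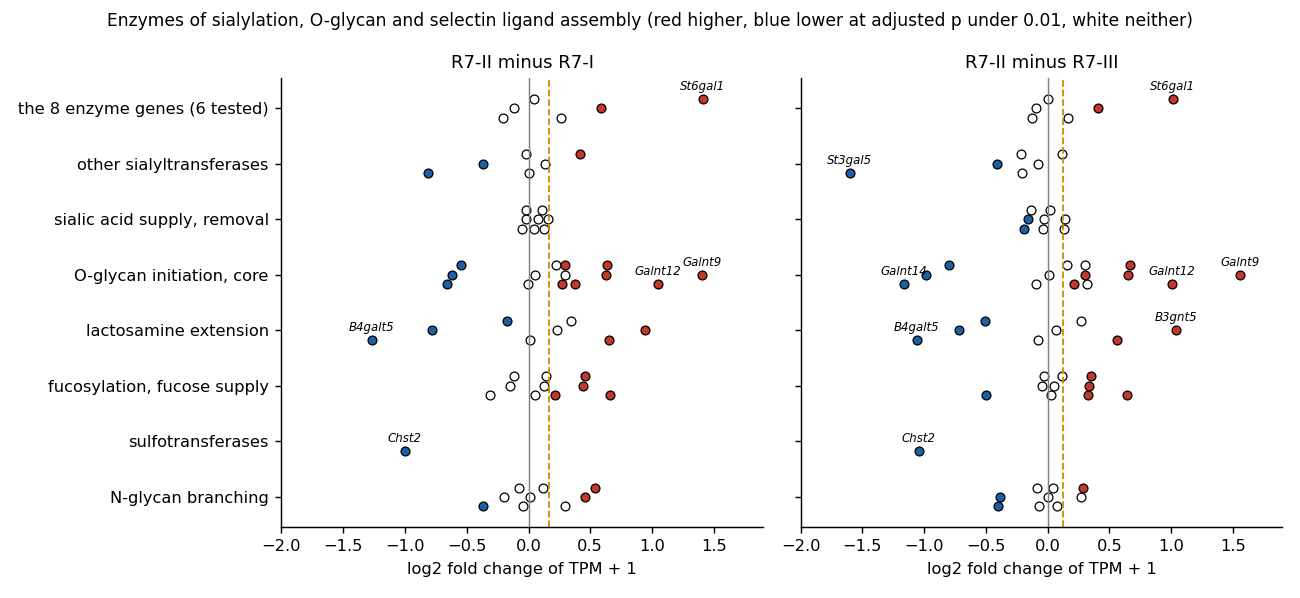
Log2 fold change of TPM + 1 (x axis) of R7-II against R7-I (left) and R7-III (right) for each gene tested in the group of 8 and in the 7 further enzyme groups (rows), with points shifted up and down within a row for sight only. Red points were higher and blue points lower at an adjusted p of 0.01, the dashed line is the median of all genes tested (0.17 and 0.12), and called genes beyond 1 are named, among them St6gal1 (1.41 and 1.01), B4galt5 (-1.27 and -1.06) and Chst2 (-1.001 and -1.04).

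Of 11 genes of sialic acid supply and removal 8 were tested, with 0 called in R7-II against R7-I by limma (1 of the 8, the sialidase gene Neu3, had an unadjusted p under 0.05, at 0.0361 in limma's model), and 0 higher and 2 lower against R7-III (medians 0.06 and -0.03). After median-of-ratios rescaling 3 were lower against R7-I and 2 against R7-III. Cmah, which turns the common sialic acid of mice into its glycolyl form, was at 82.6 to 92.8 TPM in R7-I, 86.0 to 105 TPM in R7-II and 92.2 to 111 TPM in R7-III and passed in no comparison. Nans, the sialic acid synthase, was at 87.4 to 90.2, 86.3 to 89.6 and 99.4 to 101 TPM. It was lower in R7-II than in R7-III by -0.19 (adjusted p = 2.32e-04 from limma), and higher in R7-III than in R7-I by 0.17 (adjusted p = 0.00292 from limma), a call lost in 7 of 19 alternatives, among them both rescalings and leaving out R7-I replicate 1, R7-I replicate 3, R7-III replicate 1 or R7-III replicate 2 (highest adjusted p = 0.0348 from limma).

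The enzymes that start O-glycans and build their cores changed in both directions. Of 21 genes 14 were tested, of which R7-II had 7 higher and 3 lower than R7-I, and 6 higher and 3 lower than R7-III (medians 0.28 and 0.26), against 4 higher and 4 lower in both after median-of-ratios rescaling. Galnt9 and Galnt12, from the family that adds the first sugar of an O-glycan, were higher in R7-II. Galnt12 was at 7.53 to 8.0 TPM in R7-I, 15.7 to 17.8 TPM in R7-II and 6.92 to 9.28 TPM in R7-III, with log2 fold changes of 1.05 and 1.00 (adjusted p = 4.02e-06 and 5.61e-06 from limma). Galnt9 was at 0.15 to 0.87, 2.48 to 2.80 and 0.15 to 0.41 TPM, with 1.40 and 1.56 (adjusted p = 6.10e-05 and 3.07e-05 from limma, and 1.85e-04 and 1.10e-04 with no filter on low values), and passed the filter through R7-II alone. Galnt14, of the same family, was lower in R7-II, at 0.28 to 0.74 TPM against 1.15 to 1.83 TPM for R7-I and 2.22 to 2.78 TPM for R7-III, with -0.66 and -1.16 (adjusted p = 0.00312 and 7.23e-05 from limma). The first of these was lost without R7-I replicate 2 or R7-I replicate 3 and with only both clones in the fit (highest adjusted p = 0.0153 from limma). The most abundant members of the family, Galnt1 and Galnt2, were at means of 67.7 and 39.6 TPM. Galnt1 passed in no comparison, and the log2 fold change of 0.37 of Galnt2 against R7-I was lost in 9 of 19 alternatives, among them both rescalings and leaving out any R7-I replicate or R7-II replicate 1 (highest adjusted p = 0.0885 from limma).

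Of 13 genes of lactosamine extension 8 were tested, with 2 higher and 3 lower in R7-II in each comparison (medians 0.12 and -0.01), and 2 higher and 4 lower in each after median-of-ratios rescaling. The called genes past 2-fold in this list act on glycolipids. B4galt5, a lactosylceramide synthase, was at 59.9, 65.4 and 63.5 TPM in R7-I, at 22.9, 25.3 and 28.6 TPM in R7-II and at 52.3, 54.4 and 56.2 TPM in R7-III. It was lower in R7-II by -1.27 and -1.06 (adjusted p = 1.76e-07 and 5.40e-07 from limma), without overlap. B3gnt5, which extends lactosylceramide, was at 0.32 to 0.46 TPM in R7-I, 1.65 to 1.70 TPM in R7-II and 0.22 to 0.36 TPM in R7-III, higher in R7-II by 0.94 and 1.03 (adjusted p = 3.80e-05 and 2.07e-05 from limma, and 6.45e-06 and 4.60e-06 with no filter on low values), and it too passed the filter through R7-II alone. B3gnt2, the main enzyme of polylactosamine chains, was the most abundant of the list, with 141 to 155, 128 to 135 and 138 to 140 TPM, and differed by -0.18 between R7-II and R7-I, lower in R7-II (adjusted p = 0.00196 from limma).

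Of 14 genes of fucosylation 10 were tested, with 4 higher and 0 lower in R7-II against R7-I and 4 higher and 1 lower against R7-III (medians 0.13 and 0.08). After median-of-ratios rescaling these were 2 higher and 3 lower, and 2 higher and 1 lower. Tsta3, which makes the fucose donor, was at 74.6 to 80.8, 68.6 to 72.3 and 69.1 to 74.9 TPM and passed in no comparison. Slc35c1, the carrier of this donor into the Golgi, was at 41.7 to 45.5, 49.3 to 54.9 and 45.3 to 49.7 TPM, and its log2 fold change of 0.22 against R7-I (adjusted p = 0.00496 from limma) did not pass after either rescaling or without R7-I replicate 1, R7-I replicate 2 or R7-II replicate 1. Of the 4 sulfotransferases of selectin ligands only Chst2 was tested. It was at 52.3, 52.3 and 53.4 TPM in R7-I, at 24.3, 28.8 and 24.6 TPM in R7-II and at 51.9, 52.3 and 58.9 TPM in R7-III, lower in R7-II by -1.001 and -1.04 (adjusted p = 6.65e-07 and 4.81e-07 from limma). Of 10 genes of N-glycan branching 9 were tested, with 2 higher and 1 lower against R7-I and 1 higher and 2 lower against R7-III (medians 0.01 and 0.00), and 2 and 3, and 0 and 3, after median-of-ratios rescaling. The most abundant, the mannosidase Man1a and the branching enzyme Mgat2, were at 71.7 to 84.0 and 62.9 to 76.2 TPM and passed in no comparison.

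Along the route to sialyl Lewis x the levels were uneven. The genes of this paragraph other than members and Galnt1, B3gnt2 and Selplg were picked for their place in the route after their values were seen. The core 1 synthase C1galt1 was at 29.1 to 31.5, 35.5 to 38.2 and 31.1 to 31.5 TPM, and its differences of 0.27 and 0.21 (adjusted p = 4.20e-04 and 0.00216 from limma) did not pass after either rescaling. Its chaperone C1galt1c1 was at 17.98 to 21.98 TPM over the 9 libraries. The core 2 enzymes were low in every clone: beside Gcnt1, Gcnt4 was at 0.80 to 1.35 TPM in R7-I, 0.34 to 0.37 TPM in R7-II and 1.08 to 1.53 TPM in R7-III, and Gcnt3 was at 0 to 0.02 TPM. Gcnt4 was lower in R7-II by -0.55 and -0.80 (adjusted p = 0.00540 and 5.37e-04 from limma), and the first was lost in 6 of 18 alternatives, among them leaving out R7-I replicate 1 or any R7-II replicate (highest adjusted p = 0.0265 from limma). B4galt1, which adds galactose to growing chains, was at 31.6 to 34.4, 46.9 to 55.8 and 33.2 to 35.6 TPM, and was higher in R7-II by 0.65 and 0.56 (adjusted p = 8.06e-06 and 2.43e-05 from limma). St3gal4 was the abundant sialyltransferase of the route, and St3gal6 and Fut7 were near 1 TPM or below.

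**Figure D5:**
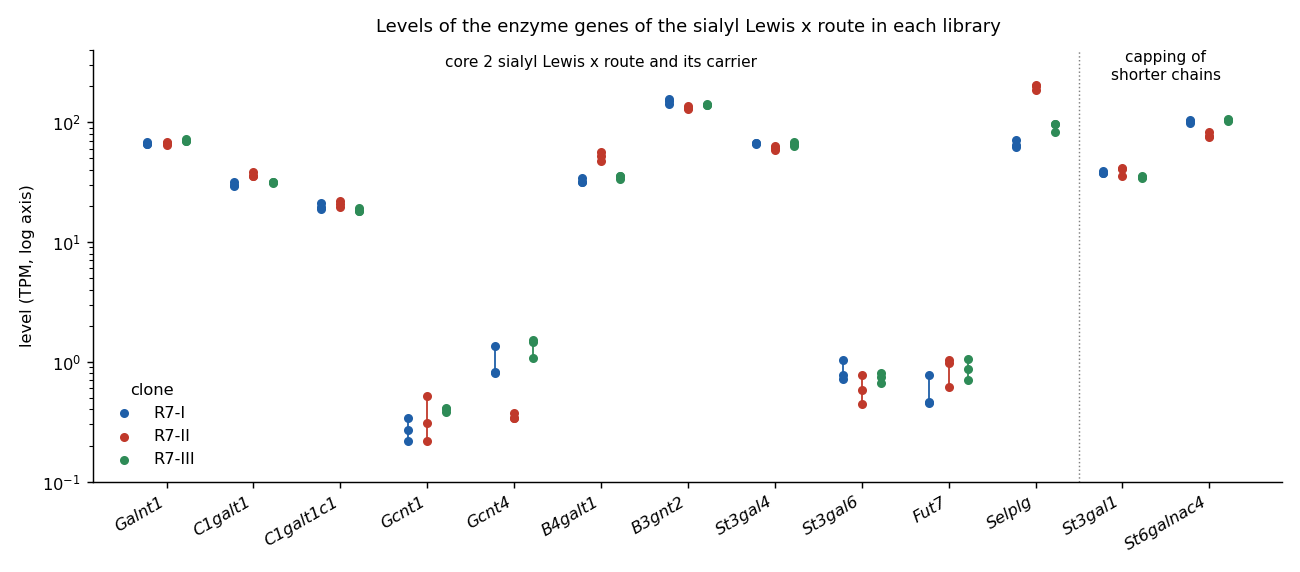
Levels in TPM (log y axis) of 11 genes from the start of the O-glycan to the carrier Selplg, and of St3gal1 and St6galnac4 to the right of the dotted line, which cap shorter chains, in each library (points, with lines over the range of a clone). Gcnt1, Gcnt4, St3gal6 and Fut7 lie between 0.22 and 1.53 TPM in every clone, while the other genes lie at 17.98 TPM or above.

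All 8 glycoprotein genes tested among 10 carriers of these glycans differed between R7-II and the other clones. Of the 8, 7 were higher and 1 was lower in R7-II in each comparison (medians 0.44 and 0.39), against 6 and 1 after median-of-ratios rescaling, where Cd8a was not called. Of all genes, 40.6% were higher and 15.5% lower against R7-I, and 35.6% and 18.0% against R7-III. After median-of-ratios rescaling these shares were 25.2% and 29.4%, and 25% and 28.2%. Selplg, which encodes the P-selectin ligand PSGL-1, was at 62.4, 64.4 and 70.6 TPM in R7-I, at 200.2, 185 and 205 TPM in R7-II and at 97.1, 97.1 and 82.5 TPM in R7-III. It followed the order of St6gal1 and St8sia4 without overlap, with log2 fold changes of 1.57 and 1.09 for R7-II (adjusted p = 5.52e-08 and 4.23e-07 from limma) and 0.48 for R7-III against R7-I (adjusted p = 0.00114 from limma). Cd44, the hyaluronan receptor, was the carrier that was lower, at 169 to 177 TPM in R7-I, 61.4 to 93.8 TPM in R7-II and 194 to 198 TPM in R7-III (-1.17 and -1.35, adjusted p = 6.64e-06 and 2.56e-06 from limma). Spn, which encodes CD43, a carrier of core 1 and core 2 chains, was at 212 to 222, 281 to 328 and 213 to 230 TPM (0.44 and 0.42, adjusted p = 3.86e-05 and 6.45e-05 from limma). The CD45 gene Ptprc was higher by 0.30 and 0.36, and Glg1, the gene of a ligand of E-selectin, by 0.44 and 0.30 (highest adjusted p of the 4 values 1.73e-04 from limma).

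Among the substrates of single members, Cd8b1, whose product carries O-glycans capped by ST3GAL1, was at 310 to 326, 496 to 555 and 322 to 332 TPM and was higher in R7-II by 0.69 and 0.67 (adjusted p = 2.50e-07 and 3.29e-07 from limma). For Cd8a the differences were 0.32 and 0.19 (adjusted p = 1.02e-04 and 0.00397 from limma), and the second was lost in 8 of 19 alternatives, including without R7-II replicate 2, R7-II replicate 3 or any R7-III replicate (highest adjusted p over all = 0.452 from limma). Ccr7, a receptor that ST8SIA4 modifies, was at 756 to 825, 1100 to 1236 and 613 to 729 TPM, higher in R7-II by 0.55 and 0.78 (adjusted p = 3.25e-05 and 2.78e-06 from limma). Nrp2, another substrate, was at 0.12 to 0.15, 0.32 to 0.53 and 0.15 to 0.21 TPM and did not pass the filter, and Ncam1 was at 0 to 0.02 TPM. With no filter on low values 8 of the 10 carriers, Nrp2 among them, were higher and 1 lower in R7-II in each comparison. Of all genes, 28.1% were then higher and 10.2% lower against R7-I, and 24.7% and 12.3% against R7-III.

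Of the selectins, the P-selectin gene Selp was at 2.46 to 2.56, 1.44 to 1.74 and 1.40 to 2.07 TPM. Its difference of -0.44 from R7-I (adjusted p = 0.00709 from limma) was lost without any single replicate of R7-I or R7-II and with the replicate number as a block (highest adjusted p = 0.0251 from limma). Sele was at 0 to 0.23 TPM and was not tested.

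Of 6 transcription factors with links to these genes, 4 were higher and 1 was lower in R7-II in each comparison. That was 66.7% and 16.7%, beside 40.6% and 15.5% of all genes against R7-I and 35.6% and 18.0% against R7-III. After median-of-ratios rescaling it was again 4 and 1 in each. Of all genes, 25.2% were then higher and 29.4% lower against R7-I, and 25% and 28.2% against R7-III. The factors were chosen with earlier results of these data known, so their share is a description and not a test. Tbx21, which encodes T-bet, known to favour Gcnt1, St3gal6 and Fut7 in effector T cells, was at 45.5, 47.1 and 44.2 TPM in R7-I, at 3.38, 6.47 and 5.91 TPM in R7-II and at 54.3, 52.7 and 42.1 TPM in R7-III (-2.94 and -3.05, adjusted p = 2.31e-07 and 2.01e-07 from limma). The levels of Gcnt1, St3gal6 and Fut7, at 0.22 to 0.52, 0.44 to 1.03 and 0.45 to 1.05 TPM, overlapped between R7-II and both other clones. At such low levels an overlap is uninformative, and a link of these 3 genes to Tbx21 was not tested. Klf2, a factor of naive and resting T cells, was at 8.40 to 9.52, 79.3 to 119 and 9.01 to 10.0 TPM (3.33 and 3.30, adjusted p = 2.16e-08 and 4.34e-08 from limma). Foxo1 was higher by 0.81 and 0.82, Tcf7 by 1.41 and 1.38 and Bcl6 by 1.29 and 1.58, all genes of factors of naive and memory cells (highest adjusted p of the 6 values 1.22e-05 from limma). Eomes was at 10.3 to 15.1, 5.51 to 12.8 and 10.6 to 13.0 TPM, with -0.65 and -0.63 (adjusted p = 0.0388 and 0.0454 from limma). In R7-III against R7-I 0 of the 6 passed, beside 6.96% of all genes higher and 1.45% lower.

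The genes whose pattern over the 9 libraries was most like that of a member were found by the root mean square difference of log2(TPM + 1), each gene centred on its own mean. For St6gal1, whose libraries spanned 1.58, these were Fbxl20 (0.06) and Tmem71 (0.08). For St8sia4, which spanned 0.70, they were Ldb1 and Fuca1 (0.03 and 0.04). For St3gal1 they were Nhlrc2 and Atxn2l (0.03 and 0.04), and for St3gal4 Cox7b and Ndufc2 (0.02 and 0.03), against spans of 0.28 and 0.20. For St3gal6 and Fut7, with spans of 0.49 and 0.50, the nearest genes stood farther off, Ndufb2 and Myeov2 (both 0.06) and Mvb12a and Bscl2 (0.08 and 0.09). With 9 libraries of 3 clones many genes share such a pattern, and 40.6% of all genes tested were higher in R7-II minus R7-I.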

How the data were processed

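RNA of sorted, peptide-activated CD8 T cells was sequenced in 9 libraries (3 of each clone). The authors prepared polyA libraries with a kit that does not mark strand, used RSEM 1.2.11 both to align the single-end reads and to estimate gene levels against RefSeq genes of mm10. The deposited values are the TPM that the authors obtained. They tested with DESeq2 1.8.1 on counts, which were not used here. TPM keeps no depth, so precision rests on the spread between libraries alone. The labels call the libraries biological replicates but do not name the animals behind them.

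From the TPM values, log2(TPM + 1) of the 11330 genes with a maximum TPM above 1 was fitted with limma 3.58.1 in R 4.3.3 (lmFit, then eBayes with a mean-variance trend) over all 9 libraries together, adjusted by Benjamini-Hochberg over all genes at a threshold of 0.01. Fold changes on this scale understate those of low genes. Permutation tests were exact and two-sided (scipy 1.17.1, Python 3.11.15). The fit was tested on simulated data. The 8 members and all gene lists were chosen with earlier results of these data known. Beyond the members, the rule names the genes of each list that passed the threshold and differed by over 2-fold in any comparison, the 2 most abundant of each list, every carrier, selectin and transcription factor tested (1 of these genes is not reported here), and the 2 genes most like each member. Of the marker lists only sums, counts and a few values are given. Adgre1 and Trac were not found by these symbols. Positions and start windows are from RefSeq and exon overlaps from the annotations of GRCm38, the mm10 build.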

Additional observations from a re-analysis of the deposited data

How the results depend on the processing

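The calls of St6gal1 in both R7-II comparisons held in all 19 alternatives tried (other pseudocounts, filters, scalings, moderation, thresholds and sample sets), and those of St8sia4 in 18 of 19, with quantile normalization the exception. The number of members called was 2 or 3 in these comparisons under every alternative, but the genes and directions behind it changed. With median-of-ratios factors 2 were higher and 1 lower in both. With quantile normalization 1 was higher and 2 lower against R7-I, beside 22.6% and 26.6% of all genes. Against R7-III it was then 1 and 1, beside 24.4% and 25.1%. Between R7-III and R7-I, St6gal1 was called, 1 in place of 0, with only both clones in the fit and at an adjusted p of 0.05. It was also called without R7-II replicate 2 (0 to 1 over the libraries left out). The number of pathway genes called there was 10 in place of 4 at an adjusted p of 0.05, and 2 to 5 when single libraries were left out, with 2 without R7-I replicate 1, R7-I replicate 3 or R7-III replicate 2. Signs turned for values that had not passed: St3gal1 in R7-II against R7-I was -0.14 with median-of-ratios factors and -0.16 with quantile normalization, Fut7 in the same comparison was -0.069 with quantile normalization, and Fut7 in R7-II against R7-III was 0.00049 with log2(TPM + 5), and lay between -0.066 and 0.10 with single libraries left out, at 0.10 without R7-II replicate 1 and 0.065 without R7-III replicate 3. St3gal4 in R7-III against R7-I lay between -0.048 and 0.0053 in the same way, positive without R7-III replicate 3. The cause was not tested. Over all genes, 953 were called between R7-III and R7-I, 436 to 1120 with single libraries left out (436 without R7-I replicate 1) and 2142 at an adjusted p of 0.05. The replicate numbers did not pair the libraries, since deviations from the clone means correlated between -0.0449 and 0.0888 for equal numbers. With the replicate block, 25, 24 and 5 pathway genes were called in place of 26, 27 and 4. The low levels of Gcnt1, Gcnt2, St3gal6 and Fut7 limit what differences could be seen, and the read number behind them is not known from TPM.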
